A study of Mus musculus with 4 samples.

Results

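The genes described here were 10 members of the AP-1 and immediate-early group, taken by symbol (*Fos*, *Fosb*, *Fosl1*, *Fosl2*, *Jun*, *Junb*, *Jund*, *Atf3*, *Egr1* and *Ier2*), and all 10 were among the 20197 genes of the expression table. RNA was sequenced from 4T1 cells, an unmodified mouse mammary tumor line used as a metastatic model of triple negative breast cancer. MitoSpy Red, given to living cells at 20 nM, is a dye whose uptake rises with mitochondrial membrane potential (MMP), and the 5% with the strongest and the 5% with the weakest stain were sorted as high MMP and low MMP cells, with 2 samples per group and 100000 cells per sample. Both groups were grown, stained, detached with trypsin, sorted and spun down in the same way before lysis, and unsorted cells were not analysed here. The labels number the samples 1 and 2 in each group but do not say that equal numbers share a day or a culture, so the number serves as a name and p-values measure the spread between these samples only.

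AP-1 is a transcription factor built from pairs of basic leucine zipper proteins. Fos proteins must pair with a Jun protein to bind DNA, whereas Jun proteins can also pair with each other. Immediate-early genes are switched on by signals such as serum, growth factors or stress, without new protein synthesis, and many of their mRNAs are short-lived. *Fosl1* (encoding FRA-1) is known in mammary tumor cells as a longer-lasting Fos protein linked to invasive behavior.

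Samples of the same group lay farthest apart for *Fosb*, *Fos* and *Atf3*, and the distance was graded over the other members, from *Jund* down to *Fosl1*. *Fosb*, *Fos* and *Atf3* were 3.94-fold to 13.0-fold apart between samples of the same group, and each was high in high MMP 1 and low MMP 2 and low in the other two samples. In such bulk samples, fewer cells with the transcript and less of it per cell cannot be told apart. *Fosl1*, *Fosl2* and *Egr1* were 1.31-fold to 1.44-fold higher in high MMP cells on average (log2 difference 0.39 to 0.52), with both high MMP samples above both low MMP samples. *Junb* and *Ier2* had the same order of groups, as did 13.5% of all genes. None of the 10 passed the test across all genes (limma, adjusted p 0.472 to 0.994). Values are normalized reads, in which each library is scaled by the authors to the same total, and differences are high minus low MMP on the log2(normalized reads + 1) scale unless another contrast is named.

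Depth was ample for every member. The libraries held 22591970 to 26395015 reads assigned to genes, and the lowest member value rested on 374 reads. Of the 7 epithelial markers, *Epcam* had 3647 to 4619 normalized reads and *Krt8* 13147 to 19554. *Krt14* was higher in both high MMP samples (1368 and 1529 in high, 1226 and 1100 in low MMP 1 and 2). *Cdh1* was lower in both (3903 and 4726 in high, 5421 and 5426 in low MMP 1 and 2). Of 10 immune, endothelial and fibroblast markers 4 were not among the genes of the table (*Adgre1*, *Cd3e*, *Ms4a1* and *Col3a1*), *Ptprc* had 0 to 2 reads, and the summed level of the 6 in the table was 392 to 514 in high and 697 to 698 in low MMP samples, carried mostly by *Pdgfra* and *Cd68*. Protein-coding transcripts of the mitochondrial genome took 1.27% and 2.14% of reads in high MMP 1 and 2, and 2.02% and 2.24% in low MMP 1 and 2.

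**Figure D1:**
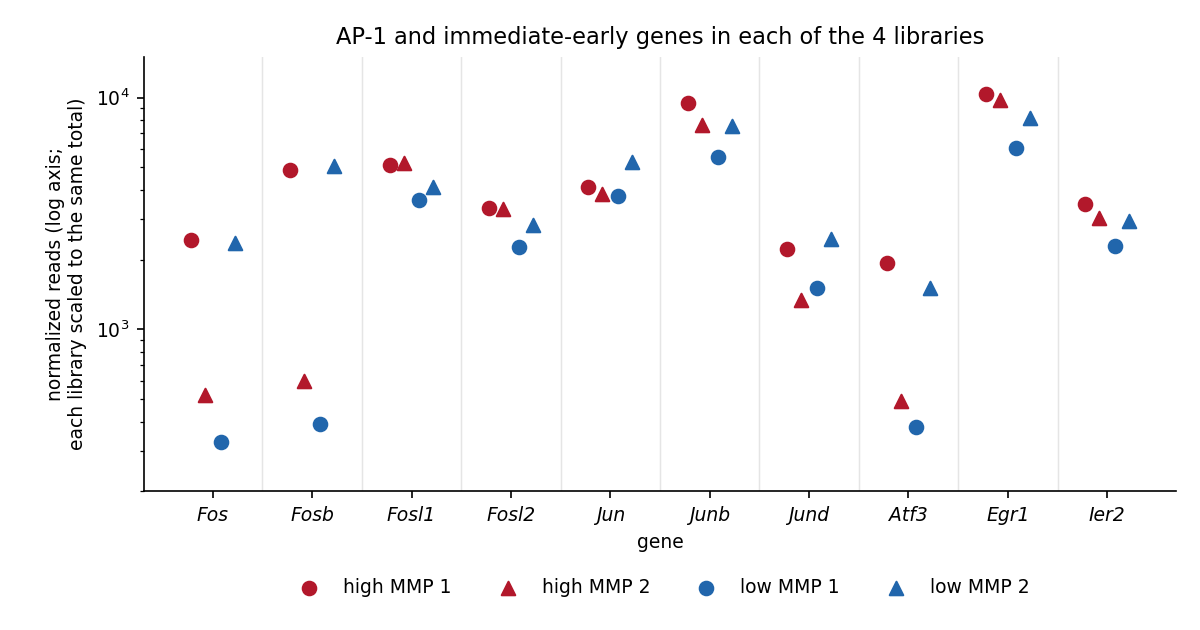
Normalized reads (log axis) of the 10 members in each library, with high MMP in red, low MMP in blue, circles for replicate 1 and triangles for replicate 2. *Fos*, *Fosb* and *Atf3* split each group apart, with values as low as 326 and as high as 5063, while the red points of *Fosl1*, *Fosl2* and *Egr1* lie above the blue ones.

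The bases before annotated start sites are shown so that members with wider and narrower spread can be read side by side. RefSeq windows (build GRCm38.p6) were matched for 7 of the 10 members, and the other 3, *Fosl1*, *Egr1* and *Ier2*, had no window. RefSeq gives 1 start per gene here, which for *Atf3*, *Fosl2* and, by a few bases, *Fosb* lies inside the longer GENCODE gene span given below. For *Junb* it lies just before that span (start site 84978748 on the minus strand, span end 84978718). For *Jund*, whose window was searched but is not printed, it also lies before the span. Printed below, 5′ to 3′ on the strand of the gene, are the 150 bases before the start site of the 3 genes with the widest spread (*Fos*, chr12:85473740-85473889, plus strand; *Fosb*, chr7:19310046-19310195, minus strand; *Atf3*, chr1:191183334-191183483, minus strand) and of 3 with a narrower one (*Jun*, chr4:95052223-95052372, minus strand; *Junb*, chr8:84978749-84978898, minus strand; *Fosl2*, chr5:32136322-32136471, plus strand). Capitals mark matches on either strand to the motifs searched.
Fos: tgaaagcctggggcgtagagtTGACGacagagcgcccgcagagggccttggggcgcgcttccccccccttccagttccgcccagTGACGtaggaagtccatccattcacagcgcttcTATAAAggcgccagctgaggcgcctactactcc
Fosb: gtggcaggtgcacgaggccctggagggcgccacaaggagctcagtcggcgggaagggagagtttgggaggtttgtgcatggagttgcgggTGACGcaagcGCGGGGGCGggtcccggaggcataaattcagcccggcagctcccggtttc
Atf3: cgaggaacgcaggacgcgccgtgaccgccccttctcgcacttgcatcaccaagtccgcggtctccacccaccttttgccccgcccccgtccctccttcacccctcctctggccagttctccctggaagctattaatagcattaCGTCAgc
Jun: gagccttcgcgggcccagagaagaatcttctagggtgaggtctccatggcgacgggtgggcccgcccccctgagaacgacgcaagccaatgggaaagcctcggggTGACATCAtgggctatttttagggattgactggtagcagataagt
Junb: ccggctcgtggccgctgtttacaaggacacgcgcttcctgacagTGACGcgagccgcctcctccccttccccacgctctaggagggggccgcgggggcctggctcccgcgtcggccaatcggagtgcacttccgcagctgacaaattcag
Fosl2: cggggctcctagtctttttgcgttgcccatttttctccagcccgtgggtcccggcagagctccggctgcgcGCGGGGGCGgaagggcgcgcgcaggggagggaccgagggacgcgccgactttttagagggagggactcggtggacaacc

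The core of the cAMP response element, TGACG, to which CREB and ATF proteins bind, was found within 250 bases upstream of 4 of the 7 members with a window: *Fos* (2 matches), *Fosb*, *Atf3* and *Junb*. The same letters occur in 17.8% of 32851 RefSeq windows of that length. *Jun* held the variant AP-1 site TGACATCA, which 2.93% of all windows hold, and *Fosb* and *Fosl2* held the EGR site GCGGGGGCG, found in 2.57%. *Fos* alone of the 7 had a TATAAA box, found in 12.4% of all windows. The AP-1 site TGACTCA (4.46% of all windows), the full element TGACGTCA (1.55%), which contains the core, and the CArG box bound by SRF (1.47%) had no match in these 7 windows. Bases farther upstream were not searched, so sites there would be missed. For *Jund* the start site used was 70697739, whereas its GENCODE span begins at 70698949, so the bases next to that span were not searched. The few bases between the start site and the span of *Junb* were not searched either.

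*Fos* (ENSMUSG00000021250, GRCm38 chromosome 12, 85473890 to 85477273) is the classical immediate-early gene and encodes the main inducible partner of Jun. It had 2419 normalized reads in high MMP 1, 521 in high MMP 2, 326 in low MMP 1 and 2357 in low MMP 2. High MMP 1 and low MMP 2 were thus similar and the other samples were lower, and the groups overlapped. The log2 difference between the groups was 0.36 (SE 1.25, adjusted p 0.979 in limma), against 2.21 within the high MMP group and 2.85 within the low MMP group.

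*Fosb* (ENSMUSG00000003545, chromosome 7, 19302696 to 19310051) encodes a Fos protein with a similar induction by stimuli. Its values were 4855 and 601 normalized reads in high MMP 1 and 2, and 389 and 5063 in low MMP 1 and 2. This was the widest spread of the 10 members, an 8.07-fold distance in the high MMP group and a 13.0-fold distance in the low MMP group. The difference between the groups was 0.28 (SE 1.64, adjusted p 0.994 in limma). For the 12902 genes that averaged 10 or more normalized reads over the 4 libraries, termed expressed genes from here on, *Fosb* ranked 1 in the size of the low MMP distance and 2 in that of the high MMP distance, and *Fos* ranked 2 and 17.

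*Atf3* (ENSMUSG00000026628, chromosome 1, 191170296 to 191218039) encodes a stress-induced bZIP factor that can pair with Jun proteins. It had 1934 and 490 normalized reads in high MMP 1 and 2, and 377 and 1515 in low MMP 1 and 2. As for *Fos* and *Fosb*, high MMP 1 and low MMP 2 were the higher samples of their groups. The samples were 3.94-fold apart in high MMP cells and 4.00-fold apart in low MMP cells (ranks 30 and 12 of 12902), and the group difference was 0.36 (SE 0.97, adjusted p 0.966 in limma).

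The remaining Fos family members, *Fosl1* and *Fosl2*, had close replicates in the high MMP group, and low MMP 1 was below low MMP 2 for both. *Fosl1* (ENSMUSG00000024912, chromosome 19, 5447547 to 5455946) had 5140 and 5202 normalized reads in high MMP 1 and 2, and 3616 and 4106 in low MMP 1 and 2. Every high MMP sample was above every low MMP sample, and the high MMP samples did not differ beyond counting error (read ratio 1.01, exact 95% interval 0.978 to 1.05). The group difference was 0.42 (SE 0.10), larger than either within-group difference (0.02 and 0.18), with an unadjusted p of 0.0117 and an adjusted p of 0.472 in limma. *Fosl2* (ENSMUSG00000029135, chromosome 5, 32135801 to 32157842), which encodes FRA-2, had 3323 and 3306 normalized reads in high MMP 1 and 2 against 2270 and 2814 in low MMP 1 and 2. Its high MMP samples were again within counting error of each other (read ratio 1.00, exact 95% interval 0.962 to 1.05) and above both low MMP samples. The difference was 0.39 (SE 0.13, unadjusted p 0.0364, adjusted p 0.472 in limma).

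Of the Jun family, which supplies the obligate partners of Fos proteins, *Junb* alone had groups that did not overlap. *Jun* (ENSMUSG00000052684, chromosome 4, 95049034 to 95052222) had 4123 and 3843 normalized reads in high MMP 1 and 2, and 3744 and 5280 in low MMP 1 and 2. Low MMP 2 was the highest sample and the other 3 lay close together, so its difference of -0.16 (SE 0.19, adjusted p 0.868 in limma) was smaller than the low MMP spread of 0.50. *Junb* (ENSMUSG00000052837, chromosome 8, 84974484 to 84978718) had 9496 and 7615 in high MMP 1 and 2 against 5558 and 7568 in low MMP 1 and 2. High MMP 2 and low MMP 2 were almost level, and the difference of 0.39 (SE 0.21, adjusted p 0.668 in limma) was smaller than the low MMP spread of 0.45. *Jund* (ENSMUSG00000071076, chromosome 8, 70698949 to 70700616), usually the most steadily expressed Jun gene, had 2223 and 1343 in high MMP 1 and 2, and 1515 and 2458 in low MMP 1 and 2. It split like *Fos*, with high MMP 1 and low MMP 2 above the others, but only 1.65-fold and 1.62-fold within the groups, and its difference was -0.16 (SE 0.35, adjusted p 0.955 in limma).

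*Egr1* and *Ier2* are not part of AP-1. *Egr1* (ENSMUSG00000038418, chromosome 18, 34859823 to 34864984), a zinc finger factor induced through SRF, had 10354 and 9783 normalized reads in high MMP 1 and 2, and 6032 and 8141 in low MMP 1 and 2. The groups did not overlap, and the difference of 0.52 (SE 0.17, unadjusted p 0.0377, adjusted p 0.472 in limma) was the largest among the 10 members and exceeded the spread in both groups (0.08 and 0.43). *Ier2* (ENSMUSG00000053560, chromosome 8, 84661331 to 84662852), a small nuclear protein of the early response, had 3470 and 3028 in high MMP 1 and 2, and 2282 and 2944 in low MMP 1 and 2. High MMP 2 was just above low MMP 2, and the difference was 0.32 (SE 0.16, adjusted p 0.644 in limma), below the low MMP spread of 0.37.

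**Figure D2:**
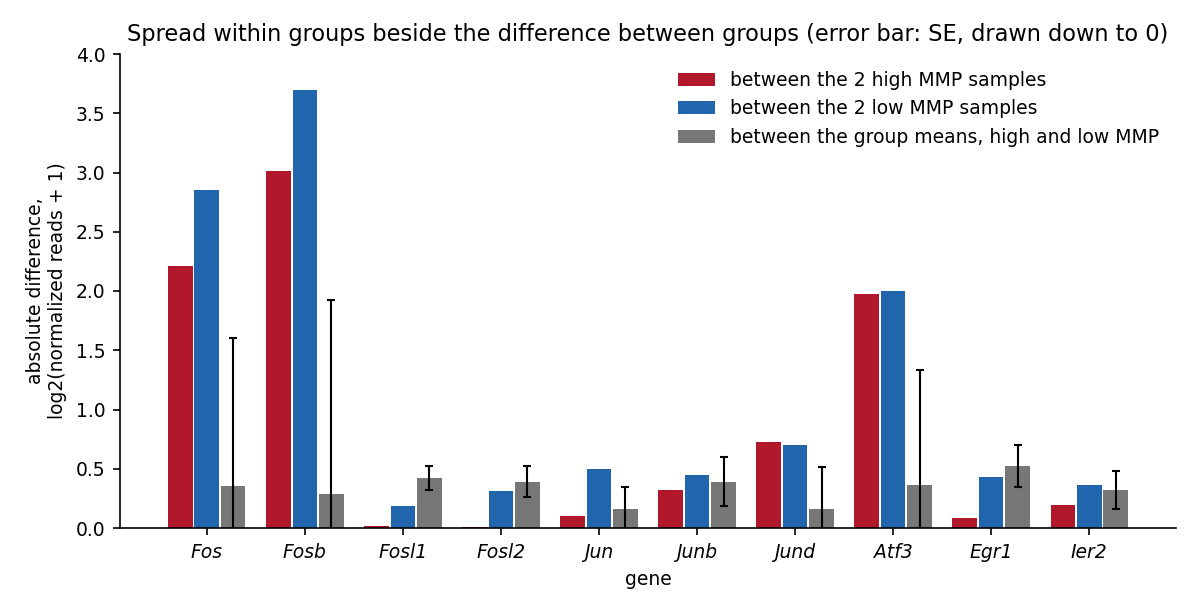
For each member, the absolute difference within the high MMP group (red), within the low MMP group (blue) and between the group means (gray, with the limma SE, drawn down to 0), all on the log2(normalized reads + 1) scale. For *Fosb* the bars within groups reach 3.01 and 3.70 beside 0.28 between groups, whereas for *Fosl1*, *Fosl2* and *Egr1* the gray bar is the tallest, as it would be for 25.8% of expressed genes. The group difference was negative for *Jun* and *Jund*.

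Across the group, limma called 0 of the 10 members at an adjusted p under 0.05, as it called 0% of all 20197 genes, and *Fosl1*, *Fosl2* and *Egr1* had an unadjusted p under 0.05, all higher in high MMP cells, against 3.95% of all genes that were higher at that p, 6.01% that were lower and 9.96% in either direction. After quantile normalization or without the variance trend *Fosl1* alone of the 3 kept an unadjusted p under 0.05, and without high MMP 1, high MMP 2 or low MMP 1 none did. On the reads recovered from the table, edgeR called 0 members and 0% of genes. At an unadjusted p under 0.05, edgeR had 3 members and 1423 of 20197 genes in either direction. DESeq2 called 0 members and 0.985% of the genes it tested. At an unadjusted p under 0.05, DESeq2 had 5 members and 660 of 11974 genes in either direction. With both high MMP samples above both low MMP samples stood 5 members (*Fosl1*, *Fosl2*, *Junb*, *Egr1* and *Ier2*), against 13.5% of all genes, and none had the opposite order, which 24.5% of all genes had (14.3% and 23.7% of expressed genes). Without low MMP 2, when only low MMP 1 had to be exceeded, this count was 9, and the shares above do not apply to it. After quantile normalization of all samples the members' count was 4, without *Junb*, so the order of the groups for *Junb* rests on the scaling. Of the lists described below, 10 of 25 other immediate-early genes (40.0%) and 3 of 17 such factors (17.6%) also had both high MMP samples on top. The same held for 7 of 18 AP-1 targets (38.9%) and 8 of 22 upstream kinases and SRF cofactors (36.4%). Among AP-1 partners it held for 3 of 13 (23.1%), and among heat-shock genes for 0 of 12. With 2 samples a group an exact permutation test of a single gene cannot go below p = 0.333.

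The median difference over the 10 members was 0.36, with 8 positive and 2 negative values, beside a median of -0.04 over all genes tested. Leaving out single samples moved it over a wide range, to 0.01 without high MMP 1 and to -0.13 without low MMP 1. Low MMP 1 was the lowest library for 9 of the 10 members, as it was for 16.9% of expressed genes, and *Jund*, the exception, was lowest in high MMP 2. High MMP 1 was the highest library for 6 members and low MMP 2 for 3 (*Fosb*, *Jun* and *Jund*).

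Between samples of one group, the median absolute difference of the members was 0.26 in high and 0.47 in low MMP cells, beside 0.21 and 0.11 over expressed genes. For 8 members in the high MMP group and all 10 in the low MMP group the exact 95% interval of the read ratio excluded 1, so these distances were larger than counting error. High MMP 1 was above high MMP 2 for 9 members and low MMP 2 above low MMP 1 for all 10, and both held for 9 members, against 32.5% of expressed genes. The opposite order in both groups held for 0 members and for 4445 of 12902 expressed genes. *Fos*, *Fosb* and *Atf3* were at least 2-fold apart within both groups, as were 0.512% of expressed genes. With high MMP 1 and low MMP 2 the higher samples this held for 0.326% (42 genes), and with the opposite order for 21 genes.

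Heat-shock genes, which respond to stress on cells, were read in the same samples. Among them, *Hspa1b*, an inducible chaperone, had 664 and 407 normalized reads in high MMP 1 and 2, and 486 and 770 in low MMP 1 and 2. It was thus higher in the samples where *Fos* was higher, but by 0.71 and 0.66 on the log2 scale within the groups, and reads shared with the near-identical *Hspa1a* make single values uncertain. The summed level of 12 heat-shock genes was 248396 and 206465 in high MMP 1 and 2, and 225090 and 230773 in low MMP 1 and 2. Within each group the sum was thus also higher in the sample where *Fos* was higher. The share of mitochondrial transcripts given above was lowest in high MMP 1 and highest in low MMP 2, so it did not order the samples as *Fos* did. The part that stress during handling, read here from the heat-shock genes, had in the spread was not tested.

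**Figure D3:**
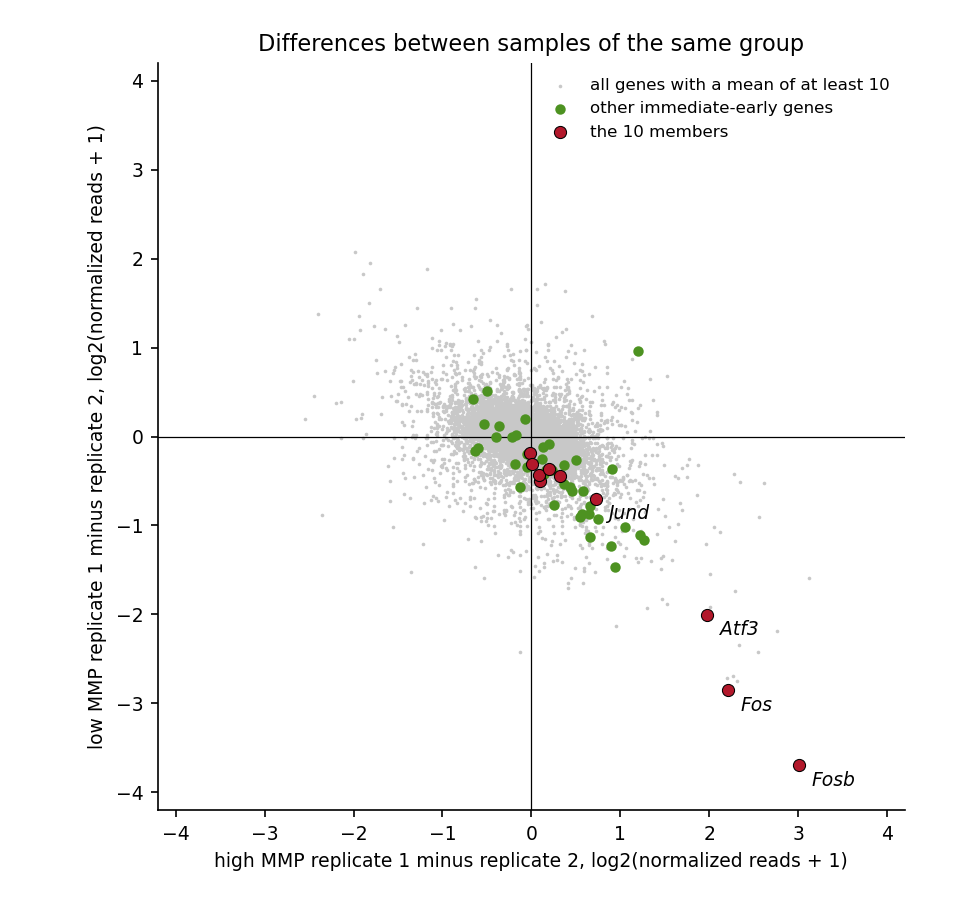
Each point is 1 expressed gene, by its difference between the high MMP samples (x axis) and between the low MMP samples (y axis), replicate 1 minus replicate 2 in log2(normalized reads + 1). The members are red, the other listed immediate-early genes green, and *Fosb*, *Fos* and *Atf3* lie at the lower right, *Fosb* farthest out with a distance of 3.01 in high MMP and 3.70 in the other direction in low MMP cells.

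Other immediate-early genes were examined as 2 lists. Of 17 transcription factors in the table, limma called 0 at an adjusted p under 0.05 and 0 had an unadjusted p under 0.05. DESeq2 called 0 of them and edgeR 0. In 13 of the 15 that were expressed (86.7%), high MMP 1 and low MMP 2 were the higher samples of their groups, against 32.5% of expressed genes. At least 2-fold apart within both groups were 3 (20.0%), against 0.512% of expressed genes. The median difference of all 17 was 0.17. *Egr3*, a relative of *Egr1*, had 427 and 222 normalized reads in high MMP 1 and 2, and 125 and 345 in low MMP 1 and 2. *Klf10*, a TGF-beta-inducible repressor, had 2194 and 910 in high and 690 and 1540 in low MMP 1 and 2. In both, high MMP 1 was the highest sample and low MMP 1 the lowest, and the groups overlapped. *Egr2* followed *Egr1* instead, with 246 and 207 in high and 99.4 and 170 in low MMP 1 and 2, groups that did not overlap and a difference of 0.79 (SE 0.30, adjusted p 0.517 in limma).

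The second list, 25 immediate-early genes that encode other kinds of protein, had a median difference of 0.30, with 21 positive values and 4 negative ones. None passed over all genes in limma. An unadjusted p under 0.05 was found for 4, all higher in high MMP cells, against 3.95% of all genes higher at that p. DESeq2 called 4, all higher in high MMP cells (*Ccn1*, *Plk2*, *Ptgs2* and *Phlda1*), against 0.985% of the genes it tested, and edgeR 0. The list was chosen with earlier results of these data known, so these counts are not independent of them. *Ptgs2*, which encodes the inducible prostaglandin synthase COX-2, had 22250 and 33732 normalized reads in high MMP 1 and 2 against 15384 and 16850 in low MMP 1 and 2. The groups did not overlap, and the difference was 0.77 (SE 0.24, adjusted p 0.472 in limma and 0.00174 in DESeq2). *Btg2*, an antiproliferative gene, differed by 0.84 (SE 0.46, adjusted p 0.684 in limma), from 436 and 275 in high to 131 and 287 in low MMP 1 and 2, with overlap. *Zfp36*, which encodes a protein that speeds the decay of mRNAs with AU-rich elements, had 3641 and 1951 in high and 1382 and 3239 in low MMP 1 and 2. *Arc* was low, at 5.31 to 16.7 normalized reads, and was 1.20 and 0.97 apart within the groups on the log2 scale.

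In 5 of the 11 expressed AP-1 partners and related bZIP factors (45.5%), high MMP 1 and low MMP 2 were the higher samples of their groups, as in 32.5% of expressed genes. None of the 11 was 2-fold apart in both groups. Of 13 in the table, limma called 0 over all genes, 1 was higher and 1 lower at an unadjusted p under 0.05, edgeR and DESeq2 called 0, and the median difference was -0.02 over all 13 and 0.03 over the 11 that were expressed. *Maff*, a small Maf protein, had 688 and 672 normalized reads in high MMP 1 and 2 against 531 and 550 in low MMP 1 and 2. Its groups did not overlap and its replicates were close (difference 0.33, SE 0.08, unadjusted p 0.013, adjusted p 0.472 in limma). *Batf3*, at 7.53 to 20.4 normalized reads, was 1.28 apart within high MMP cells, and *Bach2*, at 9.59 to 20.4, was 1.01 apart within low MMP cells, both on the log2 scale and on few reads.

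The kinases and SRF cofactors that act upstream of the members were the most even list. For the 21 of 22 that were expressed, the largest within-group difference was 0.27, that of *Mapk3* (ERK1) in high MMP cells, and the median difference over all 22 was 0.05. limma called 0 of them, with 0 at an unadjusted p under 0.05, and edgeR and DESeq2 called 0. *Mrtfa* and *Mrtfb*, the actin-regulated partners of SRF, had groups that did not overlap, with differences of 0.21 (SE 0.09) and 0.20 (SE 0.09) and an adjusted p of 0.568 and 0.567 in limma. *Rps6ka5*, a kinase of the histone H3 response, was 0.25 and 0.18 apart within the groups and differed by 0.01 between them.

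Of 18 textbook AP-1 target genes, limma, edgeR and DESeq2 called 0 over all genes, and 1 was higher at an unadjusted p under 0.05 in limma. *Mmp9*, a gelatinase, had 7548 and 18121 in high and 13651 and 8565 in low MMP 1 and 2. The samples with more *Fos* had less *Mmp9*, and the groups overlapped. Of the 18 targets, 5 had this order within the groups. In 7 (38.9%) high MMP 1 and low MMP 2 were the higher samples, as in 32.5% of expressed genes. *Mmp1a* was low, at 2.51 to 20.5 normalized reads, and 2.61 apart within high MMP cells on the log2 scale. The list had a median difference of 0.12.

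The 12 heat-shock genes had a median difference of -0.03, with 4 positive and 8 negative values. limma called 0 over all genes, with 1 lower at an unadjusted p under 0.05, and edgeR and DESeq2 called 0. In 9 of the 11 that were expressed (81.8%), high MMP 1 and low MMP 2 were the higher samples of their groups, as in 32.5% of expressed genes. None of the 11 was 2-fold apart in both groups. *Dnajb4*, a co-chaperone, had 388 and 287 normalized reads in high and 348 and 432 in low MMP 1 and 2, and *Hspb1*, a small heat-shock protein, had 105 and 60.3 in high and 63.6 and 80.6 in low MMP 1 and 2.

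The 13 protein-coding genes of the mitochondrial genome had a median difference of -0.35, with 3 positive and 10 negative values, and limma, edgeR and DESeq2 called 0 (limma also 0 at an unadjusted p under 0.05). This median includes *mt-Nd3*, *mt-Nd4l* and *mt-Atp8*, which had only 1 to 7 reads per library. High MMP 1 stood below the other samples in *mt-Atp6* (12.9 normalized reads against 29.3 in high MMP 2 and 29.6 and 31.0 in low MMP 1 and 2) and in *mt-Co2* (25.8 against 54.4, 54.0 and 45.1). Both values rest on few reads, 17 to 65 per library. *mt-Co3* had 12.1 and 16.7 in high and 27.9 and 21.2 in low MMP 1 and 2, on 16 to 32 reads. *mt-Co1*, which had the most reads of this list, had 77366 and 132707 in high and 130053 and 142989 in low MMP 1 and 2. The 7 epithelial markers had a median difference of -0.08, with 1 higher and 1 lower at an unadjusted p under 0.05 in limma. The 6 other cell markers in the table had a median difference of -0.12, with 1 lower at that p. For both lists limma and edgeR made 0 calls. DESeq2 made 1 call in the latter list (*Pdgfra*, lower in high MMP cells).

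**Figure D4:**
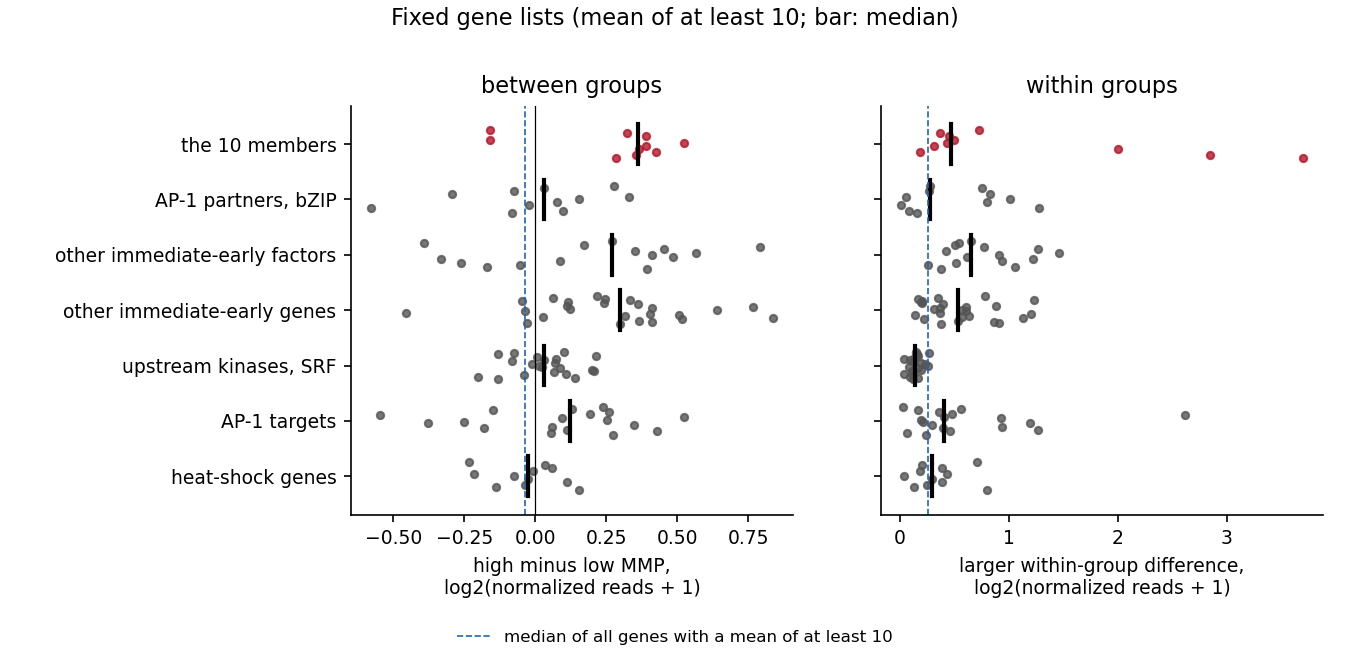
Expressed genes of each list by their high minus low MMP difference (left) and by the larger of their within-group differences (right), in log2(normalized reads + 1), with black bars for list medians and dashed lines for the median of all expressed genes. Medians here leave out list members below that level. The members have a median of 0.36 between groups and reach 3.70 within groups, while the upstream kinases reach no more than 0.27 within groups.

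The genes whose profile over the 4 libraries was nearest to the mean profile of the members (Euclidean distance between centered log2 values, 9989 genes outside the members that averaged 100 or more) were *Zfp36* (distance 0.09), *Cxcl1* (0.17), *Nfkbia* (0.20), *Lgr6* (0.21) and *9330159M07Rik* (0.24), beside a median distance of 1.09. The members themselves lay 0.55 to 2.36 from their mean profile, so every member was farther from it than these genes. The mean profile thus mixes wide and narrow spreads, and nearness to it does not show that a gene follows any single member. *Cxcl1*, a neutrophil chemokine, had 10422 and 5426 normalized reads in high MMP 1 and 2, and 4590 and 8674 in low MMP 1 and 2. *Nfkbia*, which encodes the NF-kB inhibitor IkB-alpha, had 3812 and 2192 in high and 1428 and 3051 in low MMP 1 and 2. Both were highest in high MMP 1 and lowest in low MMP 1, with overlapping groups.

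To compare levels between members, normalized reads were divided by the length of the merged exons. Per kilobase, *Junb* had the highest median over the 4 libraries (3299, range 2416 to 4127), followed by *Fosl1* (2274, 1779 to 2559), *Egr1* (1999, 1345 to 2309) and *Ier2* (1962, 1500 to 2280). *Jun* (1249, 1174 to 1656) and *Jund* (1121, 805 to 1473) came next, then *Fos* (612, 139 to 1029), *Atf3* (465, 175 to 898), *Fosb* (437, 62.3 to 811) and *Fosl2* (316, 235 to 343). The ranges of all neighbors in this order overlapped. The members were short genes, with a median span of 4698.5 bases against 23220 for 13699 protein-coding genes of the table. *Jun*, *Jund* and *Ier2* had 1 merged exon, 3 of 10 (30.0%) against 3.33%.

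Genes on the opposite strand overlapped 5 members in GENCODE M21, and the strand setting of the counting is not given in the sources used here. *Prdx2*, opposite *Junb*, had 5636 to 7973 normalized reads and *Ccdc85b*, opposite *Fosl1*, had 369 to 398. *Junos*, the antisense gene of *Jun*, had 32.6 to 54.0, and *Gm11175*, opposite *Jund*, had 2.51 to 6.20. *Gm24748*, within *Atf3*, was not among the genes of the table. If strand was ignored, reads of such pairs cannot be told apart. *Fos*, *Fosb*, *Fosl2*, *Egr1* and *Ier2* had no overlapping gene.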

How the data were processed

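RNA-seq of 4 samples of sorted 4T1 cells (2 high MMP, 2 low MMP, grouped by title) was analysed. Per the labels, 200 ng of RNA entered a stranded mRNA preparation. Mapping by the authors used STAR and GRCm38/mm10, and HTSeq is also named in their processing notes. They divided gene counts by library size and filtered genes by detection, and no gene of the table was above 0 in under 2 samples. The release and counting settings are not given in the sources used here. The deposited values are thus a normalized signal, in whole multiples of what 1 read is worth, and dividing by this step gave whole reads (within 0.02) for 100% of values. These reads give the depth, 22591970 to 26395015, and intervals that cover counting error only. The table had 0 columns of no sample, and 19993 of 20197 identifiers matched GENCODE M21.

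log2(value + 1) was tested with limma 3.58.1 (trend) in R 4.3.3, with Benjamini-Hochberg adjustment over all 20197 genes and a threshold of 0.05. A fold change on this scale understates changes of low genes. Recovered reads were tested with edgeR 4.0.16 (quasi-likelihood) and DESeq2 1.42.0. The limma, edgeR and DESeq2 fits without a block were tried on simulated counts with the same dispersion for every gene. The alternative fits were not tried in this way. Across 12902 genes, the deviations from the group means correlated at r = -0.42 between samples of equal number, so the numbers were not used as pairs. With 2 samples per group this rests on a single contrast per group and cannot show whether equal numbers share an experiment. For this comparison the authors give an n of 2 independent experiments or tumors, and the labels do not say whether the numbers are crossed.

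The members and lists were chosen with earlier results of these data known. Named from each list other than the cell markers were the 2 genes with the largest group difference and the 2 with the largest within-group difference, at a mean of at least 10, and the 5 genes nearest in profile. A gene that this rule names among the AP-1 targets is not reported here. The lists are AP-1 partners, other immediate-early factors and genes, upstream kinases and SRF cofactors, AP-1 targets, heat-shock genes, mitochondrial transcripts, and epithelial and other cell markers. Alternatives were other pseudocounts, filters, scalings and models, a replicate block, and leaving out each sample.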

Additional observations from a re-analysis of the deposited data

How the results depend on the processing

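The number of genes called over the whole table was 0 in limma and moved to 106 in edgeR with the replicate block and 118 in DESeq2. With crossed numbers as the block (chosen after seeing the data), edgeR called 733 of 20197 genes, 6 of them members, and limma called 0. No other alternative called a member, and adding the replicate number as a block to limma called 0 genes. Of the listed genes, edgeR with the replicate block called *Egr2*, *Btg2* and *Ptgs2*, and edgeR without it none. With that block, *Fosl1* alone of the members had an unadjusted p under 0.05 in limma. Leaving out each sample in turn gave differences from -1.07 to 1.78 for *Fos*, -1.57 to 2.13 for *Fosb*, -0.64 to 1.37 for *Atf3*, -0.41 to 0.09 for *Jun* and -0.52 to 0.20 for *Jund*, so their direction depends on 1 sample, while *Fosl1* (0.33 to 0.52), *Fosl2* (0.24 to 0.55), *Egr1* (0.31 to 0.74), *Junb* (0.17 to 0.61) and *Ier2* (0.14 to 0.51) kept their sign under each alternative run. The value for *Jun* was 0.088 without low MMP 2. The members' median ranged from -0.13 to 0.58 in this way, and the count of members with the high MMP samples on top from 5 to 9. With 1 sample left in a group this order is easier to meet, and no share over all genes is given for it. With every sample kept and the upstream kinases as the scale (chosen after seeing the data), the count was 3, and *Junb* and *Ier2* overlapped. With 1 sample left in a group, its spread is taken from the other group. Depth limits none of the member values, and the 2 samples per group do.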

Other observations

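Some genes outside the lists had the same split as *Fos*. Of the 9999 genes that averaged 100 or more normalized reads, 16 had a distance of 2-fold or more in each group, and in 15 of them high MMP 1 and low MMP 2 were the higher samples. Among these 15 were the members *Fos*, *Fosb* and *Atf3* and the listed factors *Klf10*, *Klf4* and *Nr4a2*. The genes named here were chosen after their values were seen. *Rcan1*, a calcineurin inhibitor, had 1157 and 286 normalized reads in high MMP 1 and 2, and 274 and 1033 in low MMP 1 and 2. *Socs3*, a feedback inhibitor of cytokine signaling, had 770 and 267 in high and 297 and 1103 in low MMP 1 and 2. *Csf2*, which encodes GM-CSF, had 314 and 67.8 in high and 41.8 and 280 in low MMP 1 and 2. *Cyp1b1*, a target of the aryl hydrocarbon receptor, was the 1 gene of the 16 with the opposite order. It had 825 and 2208 in high and 1839 and 769 in low MMP 1 and 2. Over all 12902 expressed genes the imbalance was smaller, with 42 genes 2-fold apart in the order of *Fos* and 21 in the opposite order.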
